A study of Homo sapiens with 6 samples.

Results

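Antisense noncoding RNAs are the genes whose symbol ends in -AS and a digit, each named after the gene on the opposite strand that it overlaps or lies beside. Of 14779 named genes tested, 478 were such antisense RNAs. The rule that chose them used the symbol alone, although it was set with earlier results of these data known. Where a symbol had several rows, the row with the highest mean was taken. For 315 of them the gene named before -AS also had a row and served as the sense partner; these pairs hold 303 different partners, since some partners have more than 1 antisense RNA. For the other 163 the partner was not analysed here, and they are described alone. RNA came from BE(2)-C, an established human neuroblastoma line, kept for 2 days in the solvent DMSO alone or in 10 µM NCT-503, a small molecule that inhibits PHGDH, the first enzyme of serine synthesis. Each group had 3 samples, named a, b and c, each on an Affymetrix whole-transcript array of its own, with no other treatment named. The labels call the samples independent but leave unsaid whether each came from its own culture, so the p-values reflect the spread of these samples, which may be technical. BE(2)-C stands here for a single line at a single dose and time.

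Antisense RNAs are long noncoding transcripts read from the strand opposite a gene. Many start beside their partner's promoter and run away from it, while others start inside or downstream of the partner and cross its exons. Individual antisense RNAs are known to act on their partner's chromatin, splicing or RNA stability, and many have no known role. HAND2-AS1 and GATA3-AS1 overlap the genes of HAND2 and GATA3, transcription factors of the adrenergic cell identity of neuroblastoma.

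The shared start regions of 4 pairs that the results turn on are shown here, with the start region of PCNA-AS1, because they show how closely the pairs can be arranged. Each window runs from 250 bases before to 50 bases after the antisense RNA's start, 5′ to 3′ on its own strand, from RefSeq on build GRCh38.p14. Where RefSeq gives several starts, as for GATA3-AS1 and HAND2-AS1, the window with the longest run of bases in common with a window of the partner is printed. In the first 4 windows, capitals mark the bases that also lie in the partner's own 300-base window on the opposite strand. The windows are chr5:91380097-91380396 on the plus strand for ARRDC3-AS1 (251 shared bases), chr10:8053400-8053699 on the minus strand for GATA3-AS1 (291), chr4:173530208-173530507 on the plus strand for HAND2-AS1 (272) and chr13:79406059-79406358 on the plus strand for RBM26-AS1 (153). In the window of PCNA-AS1, chr20:5119336-5119635 on the plus strand, capitals mark the words TTTCCCGC and TTTGGCGC, both of the kind that E2F factors bind.
ARRDC3-AS1: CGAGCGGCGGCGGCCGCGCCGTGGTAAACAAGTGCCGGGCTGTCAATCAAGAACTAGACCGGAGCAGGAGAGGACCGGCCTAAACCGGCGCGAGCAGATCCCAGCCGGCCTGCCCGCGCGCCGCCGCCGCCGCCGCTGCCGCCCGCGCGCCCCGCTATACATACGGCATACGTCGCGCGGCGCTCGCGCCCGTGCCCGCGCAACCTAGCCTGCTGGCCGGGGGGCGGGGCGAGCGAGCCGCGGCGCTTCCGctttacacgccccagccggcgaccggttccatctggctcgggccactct
GATA3-AS1: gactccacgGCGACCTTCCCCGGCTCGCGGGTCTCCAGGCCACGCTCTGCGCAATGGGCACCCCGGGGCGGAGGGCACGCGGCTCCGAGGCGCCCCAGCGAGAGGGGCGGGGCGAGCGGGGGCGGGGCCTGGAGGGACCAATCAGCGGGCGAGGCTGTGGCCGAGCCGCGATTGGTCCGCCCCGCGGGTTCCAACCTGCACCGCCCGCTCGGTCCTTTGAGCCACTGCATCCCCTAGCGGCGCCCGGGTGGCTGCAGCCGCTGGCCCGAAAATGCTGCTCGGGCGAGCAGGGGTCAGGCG
HAND2-AS1: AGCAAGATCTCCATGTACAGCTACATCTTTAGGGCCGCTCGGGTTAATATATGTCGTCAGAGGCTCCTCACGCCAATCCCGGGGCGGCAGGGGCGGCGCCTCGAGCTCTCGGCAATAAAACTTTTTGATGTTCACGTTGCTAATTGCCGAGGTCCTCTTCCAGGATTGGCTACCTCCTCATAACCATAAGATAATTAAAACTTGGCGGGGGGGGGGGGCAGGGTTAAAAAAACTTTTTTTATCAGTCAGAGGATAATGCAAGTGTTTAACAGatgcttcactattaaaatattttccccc
RBM26-AS1: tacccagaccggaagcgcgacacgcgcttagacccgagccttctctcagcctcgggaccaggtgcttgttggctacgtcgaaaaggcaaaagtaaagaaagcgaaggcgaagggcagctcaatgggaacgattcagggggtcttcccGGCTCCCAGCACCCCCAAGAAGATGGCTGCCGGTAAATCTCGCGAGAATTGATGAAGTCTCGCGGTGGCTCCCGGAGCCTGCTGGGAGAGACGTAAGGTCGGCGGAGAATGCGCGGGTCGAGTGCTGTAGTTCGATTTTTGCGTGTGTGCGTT
PCNA-AS1: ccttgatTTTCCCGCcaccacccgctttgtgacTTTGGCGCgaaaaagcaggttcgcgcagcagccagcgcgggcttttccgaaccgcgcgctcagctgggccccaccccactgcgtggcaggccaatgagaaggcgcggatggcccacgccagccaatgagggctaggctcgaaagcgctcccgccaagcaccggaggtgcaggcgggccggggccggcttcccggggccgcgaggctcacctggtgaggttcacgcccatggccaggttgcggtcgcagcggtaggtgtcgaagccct

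The deposited values were log2 values, with array medians over the antisense RNAs between 3.62 and 3.69. Antisense rows were dim: their median level over the 6 arrays was 3.67, against 5.0 over all genes tested, and 68 of 478 lay above that overall median. A row's signal depends on its probes, so signals set the precision of a row and do not rank transcripts. The number of arrays limits that precision, and the median standard error (SE) of a change was 0.13 among antisense RNAs and 0.11 over all genes. Of 9 listed adrenergic neuroblastoma markers, 7 were measured, with mean levels from 5.97 for TH to 10.2 for DBH. Of 4 glial markers, SOX10 and S100B were measured (4.55 and 4.44), of 4 leukocyte markers CD14 (3.38), and of 4 fibroblast markers LUM (7.10). The part of other cells in the results was not tested.

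The comparison asked which antisense RNAs differ after 2 days with NCT-503, and whether their partners differ too. Antisense RNAs fell more often than they rose. By limma's moderated test with Benjamini-Hochberg adjustment over all 14779 genes, at an adjusted p under 0.05, 78 of 478 fell (16.3%) and 38 rose (7.95%). Over all genes tested 17.1% fell and 16.4% rose, so the share of antisense RNAs that fell was near the background and the share that rose was below it. In both directions together 116 were called (24.3%), against 33.5% of all genes. The falls were also larger than the rises. By 2-fold or more, 28 antisense RNAs fell (5.86%; 3.2% of all genes) and 1, MAPT-AS1, rose (0.209%; 1.06% of all genes). The median change of those called lower was -0.83, against -0.60 for all genes called lower, and the median of those called higher was 0.43, against 0.47. In 166 of the 478 the groups did not overlap (34.7%; 47.9% of all genes), which includes 115 of the 116 called; the exception was SLCO4A1-AS1. The median change over all 478 was 0.04, beside 0.06 over all genes. The split depended on scaling: centring the arrays on their 75th percentile, which moved the median change of all genes to 0.13, gave 65 that rose and 73 that fell. Of the antisense RNAs called, 47.1% were then higher, against 32.8% in the main fit. Quantile normalization moved the split the other way, to 25.2% higher. The number that rose was 22 without DMSO a, 20 without DMSO c and 24 without NCT-503 b.

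The share of antisense RNAs that fell differed with the level of the row, while the share that rose lay between 6.90% and 7.86% at every level range under 6. Of 140 antisense RNAs with a mean level under 3, 1.43% fell and 7.86% rose, beside 2.50% and 6.0% of all genes in that range. Of 154 with a level from 3 to 4, 11.0% fell and 7.79% rose, beside 5.04% and 10.3% of all genes. Of 116 from 4 to 5, 23.3% fell and 6.90% rose, beside 12.9% and 12.3%. Of 51 from 5 to 6, 51.0% fell and 7.84% rose, while 24.4% of all genes in that range fell and 15.5% rose. At 5 and over, 32 of 68 antisense RNAs fell (47.1%) and 7 rose (10.3%), beside 27.2% and 23.0% of all genes at that level. Among the 17 at 6 and over, 6 fell (35.3%) and 3 rose (17.6%), beside 28.4% and 26.3% of all genes in that range. The 3 were EPB41L4A-AS1, THAP9-AS1 and LOXL1-AS1, and the other 8 were not called. The 362 antisense RNAs that were not called had changes between -0.50 and 0.49, and 287 of them lay within 0.25 of 0.

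**Figure D1:**
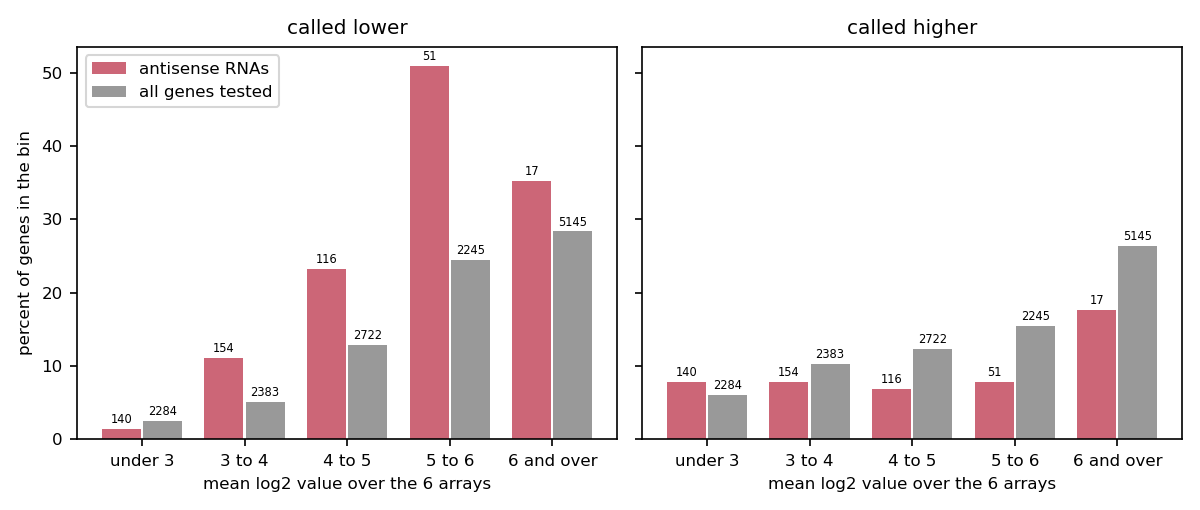
Percent of genes called lower (left) and called higher (right) in each range of mean log2 value over the 6 arrays, for antisense RNAs (red) and all genes tested (grey), with the number of genes over each bar. Of the 51 antisense RNAs from 5 to 6, 51.0% were called lower, beside 24.4% of all genes in that range.

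The largest fall was that of PSMD6-AS2, named after a subunit of the proteasome's regulatory cap. Its log2 values were 5.71, 5.77 and 5.83 on the DMSO arrays and 3.65, 3.69 and 3.17 on the NCT-503 arrays. The groups lay far apart, and the change was -2.27 ± 0.14 (SE, 3 arrays per group; adjusted p = 7.59e-05), or 4.82-fold lower. PSMA3-AS1, named after a subunit of the proteasome core, read 7.29, 7.48 and 7.28 with DMSO and 5.63, 5.81 and 6.14 with NCT-503, and fell by 1.49. PSMD6 and PSMA3 were not analysed here. NFYC-AS1 overlaps the gene for a subunit of the CCAAT-binding factor NF-Y. It read 5.74, 5.81 and 5.93 with DMSO and 4.34, 3.71 and 3.57 with NCT-503. All 3 treated arrays were lower by over 1 log2 unit than any control array, although NCT-503 a stood above the other two, and the change was -1.95 ± 0.19 (adjusted p = 0.000385). GABPB1-AS1 overlaps the gene for the beta subunit of the ETS factor GABP. It fell from 7.98 ± 0.08 to 6.68 ± 0.16 (SD, n = 3, adjusted p = 0.000147).

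Genes of several other kinds lent their names to the remaining large falls. NUTM2A-AS1 fell by 1.60 and CKMT2-AS1, which overlaps a mitochondrial creatine kinase gene of muscle, by 1.58. The partners of both were not analysed here. GNAS-AS1 is transcribed through the imprinted GNAS locus, which encodes the stimulatory G protein alpha subunit. It read 6.11, 6.07 and 5.75 with DMSO and 4.45, 4.57 and 4.28 with NCT-503, with no overlap. GNAS itself read 6.57, 6.54 and 6.47 with DMSO and 6.53, 6.50 and 6.51 with NCT-503 (change -0.02 ± 0.07, adjusted p = 0.884). TMEM44-AS1 fell from 5.52 ± 0.11 to 4.01 ± 0.04, with the lowest adjusted p of the 478, 4.62e-05. TMEM44 changed by 0.04 ± 0.13 and was not called. LHX4-AS1, which overlaps a LIM homeobox gene of pituitary and motor neuron development, fell by 1.73. LHX4 read 2.46, 2.74 and 2.82 with DMSO and 2.98, 2.85 and 2.90 with NCT-503, slightly higher on the treated arrays, but was not called (adjusted p = 0.140). MCM3AP-AS1 fell by 0.88 and PTPRG-AS1 by 1.26.

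**Figure D2:**
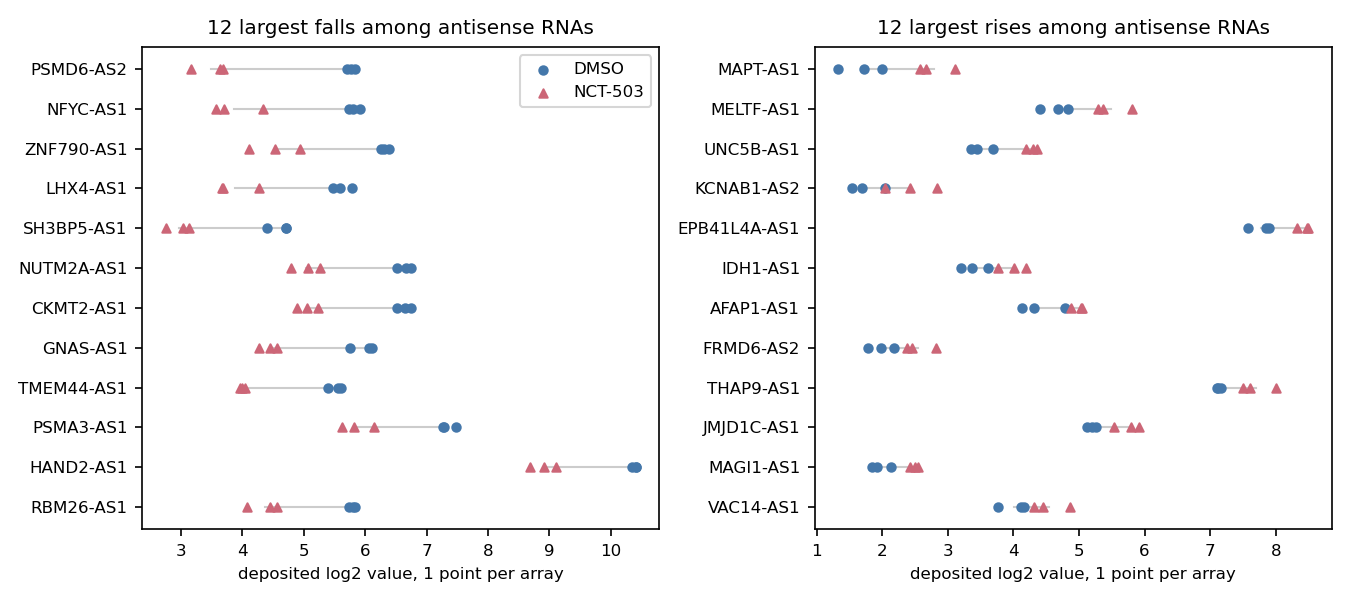
Deposited log2 values on each array for the 12 largest falls (left) and the 12 largest rises (right) among called antisense RNAs whose groups do not overlap; blue circles are DMSO arrays, red triangles NCT-503 arrays, and grey lines join the group means. PSMD6-AS2 lies from 5.71 to 5.83 with DMSO and from 3.17 to 3.69 with NCT-503, and the gaps on the right are narrower.

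Rises were fewer and smaller. MAPT-AS1, antisense to the gene for the microtubule-associated protein tau, read 1.99, 1.33 and 1.72 with DMSO and 2.67, 2.58 and 3.10 with NCT-503. It rose 2.15-fold (1.10 ± 0.20, adjusted p = 0.00488) on a dim row. MELTF-AS1, which overlaps the melanotransferrin gene, read 4.41, 4.84 and 4.68 with DMSO and 5.29, 5.80 and 5.37 with NCT-503. It rose by 0.85 (adjusted p = 0.00687), while MELTF changed by -0.02 ± 0.09. EPB41L4A-AS1, which hosts a small nucleolar RNA, lay on a bright row at 7.57, 7.89 and 7.85 with DMSO and 8.33, 8.48 and 8.50 with NCT-503. All treated arrays were above all controls, and the change was 0.66 ± 0.11 (adjusted p = 0.00313). EPB41L4A changed by -0.01 ± 0.11, but on a dim row with a mean level of 2.15. THAP9-AS1 rose from 7.13 ± 0.03 to 7.70 ± 0.27 (SD, n = 3). JMJD1C-AS1, MAGI1-AS1 and IDH1-AS1 rose by 0.56, 0.53 and 0.60. Of these, MAGI1-AS1 lay on a dim row, with a mean level of 2.23. IDH1 encodes the cytosolic NADP-dependent isocitrate dehydrogenase and was not analysed here; the call of IDH1-AS1 was lost without DMSO a (adjusted p = 0.054).

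Of the 12 largest rises, 3 had an adjusted p above 0.03. KCNAB1-AS2, which overlaps a potassium channel beta subunit gene, read 1.54, 1.70 and 2.04 with DMSO and 2.05, 2.43 and 2.84 with NCT-503. Its highest control and lowest treated array were almost level (adjusted p = 0.0443). AFAP1-AS1 changed by 0.58 (adjusted p = 0.0326) and VAC14-AS1 by 0.53 (adjusted p = 0.0479). Left-out arrays ended these calls: 4 of the 6 for KCNAB1-AS2 (DMSO a and b, NCT-503 b and c; adjusted p from 0.091 to 0.129), every array but DMSO b for AFAP1-AS1 (0.052 to 0.093) and every array but NCT-503 a for VAC14-AS1 (0.061 to 0.128).

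Partners were grouped by what they are known for, in 5 lists made by hand that do not hold every gene of their kind. Called LHX4-AS1 and ZNF407-AS1, and uncalled antisense RNAs such as LEF1-AS1, MAX-AS1 and ZNF143-AS1, stand outside the transcription factor list. The share called on each list therefore holds for that list alone. On the list of transcription factor genes, 10 of 33 fell and 6 rose, with a median change of 0.02. NFYC-AS1, ZNF790-AS1, HAND2-AS1 and GABPB1-AS1 led the falls, and the rises, HOXB-AS3, ZBTB20-AS1, ZNF503-AS1, GLIS3-AS1, ZNF295-AS1 and ZNF32-AS2, were between 0.23 and 0.49. Of 12 antisense RNAs of chromatin, replication and cell cycle genes, 4 fell and 1 rose, with a median of -0.20. CDKN2B-AS1, also called ANRIL, which lies across the CDKN2B and CDKN2A tumour suppressor locus, read 4.38, 4.44 and 4.22 with DMSO and 3.43, 3.69 and 3.57 with NCT-503 and fell by 0.78 (adjusted p = 0.00115). MCM3AP-AS1, PCNA-AS1 and KDM4A-AS1 also fell, while JMJD1C-AS1, named after a histone demethylase gene, rose. KDM4A-AS1 passed narrowly (adjusted p = 0.0455) and lost its call when b or c of either group was left out (adjusted p from 0.083 to 0.123), and under median or 75th-percentile centring. Of 22 antisense RNAs of metabolic and transport genes, 5 fell and 2 rose, IDH1-AS1 and SLCO4A1-AS1. ENO1-AS1, beside the glycolytic enolase gene, fell by 1.06, and SLC25A25-AS1, beside a mitochondrial nucleotide carrier gene, by 0.71. ENTPD1-AS1, which overlaps the ectonucleotidase CD39 gene, fell by 0.60, and IDI2-AS1 and DHRS4-AS1 fell less. Of 19 for RNA processing and protein turnover, 4 fell, PSMD6-AS2, PSMA3-AS1, RBM26-AS1 and FBXL19-AS1, and none rose by limma's adjusted test (2 at an unadjusted p under 0.05). Of 36 for neuronal genes, 6 rose and 3 fell, with a median of 0.11. MAPT-AS1, UNC5B-AS1, MAGI1-AS1 and KIRREL3-AS3 were the largest of the rises, and PTPRG-AS1, TENM3-AS1 and MAGI2-AS3 fell. The other 356 include RBM15-AS1 and PCGF3-AS1, both called lower and named after regulators of RNA and chromatin. These 356 had 52 falls and 23 rises, a median of 0.04. These shares stand beside 17.1% and 16.4% of all genes. The rows of the lists differed in level. The median level was 4.03 for transcription factors, 4.40 for chromatin and cell cycle, and 3.69 for metabolism and transport. It was 3.82 for RNA processing and protein turnover, 2.47 for neuronal genes and 3.69 for the other 356. Of all genes with a level under 3, 2.50% fell and 6.0% rose. The part of level in the counts by list was not tested.

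Of the 303 sense partners 113 were called (37.3%, beside 33.5% of all genes): 59 rose (19.5%, beside 16.4%) and 54 fell (17.8%, beside 17.1%). Their rows were brighter than those of their antisense RNAs, with a median level of 5.55 against 3.73. In 28 of the 315 pairs both members were called, in 52 only the antisense RNA, in 91 only the partner and in 144 neither. Among the paired antisense RNAs 25.4% were called (16.8% lower, 8.57% higher), beside 37.3% of the partners. Such shares alone would give some pairs with both members called, in the same or in opposite directions. The counts of these pairs were not tested against that and are a description. Of the 28, 18 moved the same way and 10 in opposite directions. Over all 315 pairs the changes of the 2 members had a Pearson correlation of 0.141 and a Spearman correlation of 0.151; this describes genes measured on the same arrays, which share their error. Whether each row reads 1 strand alone was not tested.

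**Figure D3:**
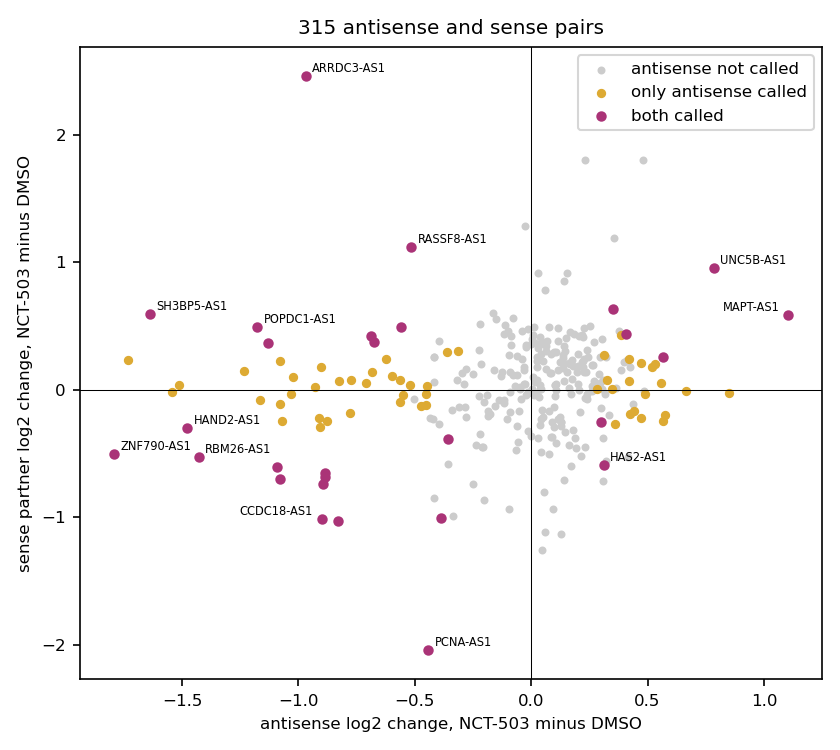
Log2 change (NCT-503 minus DMSO) of each antisense RNA (x axis) and its sense partner (y axis) for the 315 pairs; purple points have both members called, yellow ones the antisense RNA alone, and grey ones have an antisense RNA that was not called. ARRDC3-AS1 stands at the top left with changes of -0.97 and 2.46, and PCNA-AS1 at the bottom with -0.44 and -2.04.

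In 8 of the 10 opposite pairs the antisense RNA fell while the partner rose. ARRDC3 encodes an alpha-arrestin, an adaptor that brings membrane proteins to ubiquitin ligases. ARRDC3 read 8.19, 8.36 and 8.22 with DMSO and 10.66, 10.73 and 10.76 with NCT-503, and ARRDC3-AS1 read 4.03, 4.17 and 4.30 with DMSO and 3.13, 3.34 and 3.12 with NCT-503. Neither member's groups overlapped, in opposite directions: ARRDC3 rose 5.51-fold (2.46 ± 0.08, adjusted p = 5.87e-06) and ARRDC3-AS1 fell 1.96-fold (-0.97 ± 0.10, adjusted p = 0.000536). Their windows share 251 of 300 bases. RASSF8, which encodes a Ras-association domain protein, rose from 5.14 ± 0.14 to 6.26 ± 0.19 (SD, n = 3), while RASSF8-AS1 read 4.31, 4.52 and 4.27 with DMSO and 3.84, 3.89 and 3.83 with NCT-503 and fell by 0.52 (adjusted p = 0.00413). SH3BP5 encodes a mitochondrial outer membrane protein that binds the kinase JNK. It rose by 0.59 (adjusted p = 0.00307), and SH3BP5-AS1 read 4.72, 4.72 and 4.40 with DMSO and 3.13, 2.76 and 3.04 with NCT-503, a fall of 3.11-fold (adjusted p = 0.000181). POPDC1, the gene of a cAMP-binding membrane protein, rose by 0.50, and POPDC1-AS1 fell by 1.18, from 5.15 ± 0.14 to 3.98 ± 0.04.

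GATA3, the adrenergic transcription factor, read 8.89, 8.91 and 8.88 with DMSO and 9.14, 9.37 and 9.30 with NCT-503. GATA3-AS1 read 5.96, 5.76 and 5.67 with DMSO and 5.10, 5.03 and 5.24 with NCT-503. All treated arrays were above the controls for GATA3 and below them for GATA3-AS1, with changes of 0.37 ± 0.08 (adjusted p = 0.0135) and -0.67 ± 0.10 (adjusted p = 0.00243). The other 3 pairs of this kind were TAPT1 (partner 0.37, antisense -1.13), TMEM147, an endoplasmic reticulum membrane protein gene (0.49 and -0.56), and CPB2, a plasma carboxypeptidase gene (0.42 and -0.69). Both rows of the CPB2 pair were dim, with mean levels of 2.62 for CPB2 and 2.73 for CPB2-AS1. TMEM147-AS1 lost its call without DMSO a (adjusted p = 0.052). CPB2 lost its call without any array but NCT-503 c (adjusted p from 0.059 to 0.092) and under quantile normalization, and CPB2-AS1 when DMSO b or c, or NCT-503 a or c, was left out (0.060 to 0.087). In 2 pairs the antisense RNA rose and the partner fell. HAS2, which encodes a hyaluronan synthase, fell by 0.59 (adjusted p = 0.0106), and HAS2-AS1 rose by 0.31 (adjusted p = 0.0281). SERTAD4 fell by 0.26 and SERTAD4-AS1 rose by 0.30. Both calls were fragile: HAS2-AS1 lost its call without any array but NCT-503 c (adjusted p from 0.057 to 0.093), SERTAD4 without any of the 6 arrays (0.061 to 0.119) and under 3 other scalings, and SERTAD4-AS1 when DMSO b or c, or NCT-503 a or b, was left out (0.059 to 0.074).

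**Figure D4:**
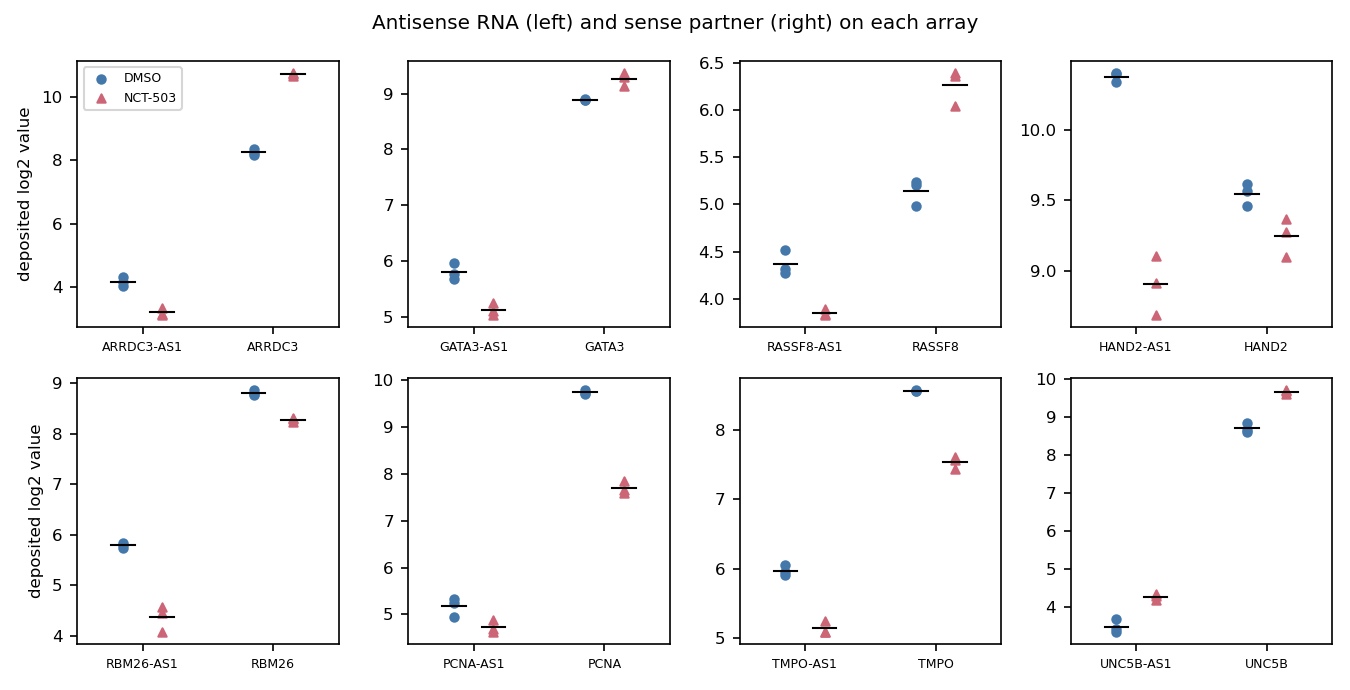
Deposited log2 values on each array for 8 pairs, with the antisense RNA on the left and the sense partner on the right of each panel; blue circles are DMSO arrays, red triangles NCT-503 arrays and black lines group means, and each panel has its own axis. In the ARRDC3, GATA3 and RASSF8 panels the members part in opposite directions, and in the other 5 they move the same way.

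Of the 18 pairs that moved the same way, 13 fell and 5 rose. The falling pairs included genes of replication and division. PCNA, the sliding clamp of DNA polymerase, had the largest fall of any partner, from 9.74 ± 0.04 to 7.70 ± 0.13 (SD, n = 3; -2.04 ± 0.09, adjusted p = 1.66e-05). PCNA-AS1 read 5.24, 5.33 and 4.95 with DMSO and 4.88, 4.68 and 4.63 with NCT-503. Its groups were separated by less than 0.1, its fall was 0.44 (adjusted p = 0.0290), and the call was lost when DMSO a or b, or NCT-503 b or c, was left out (0.079 to 0.088). The PCNA and PCNA-AS1 changes differed by 1.60 (exact permutation p = 0.10). TMPO, a nuclear lamina protein gene, read 8.57, 8.56 and 8.56 with DMSO and 7.57, 7.60 and 7.43 with NCT-503, and TMPO-AS1 read 6.05, 5.96 and 5.90 with DMSO and 5.24, 5.09 and 5.09 with NCT-503. Both members fell with no overlap, TMPO by 1.03 and TMPO-AS1 by 0.83. PRC1, which bundles the microtubules of the dividing cell's midzone, fell by 0.60 and PRC1-AS1 by 1.09. CCDC18 fell by 1.01 and CCDC18-AS1 by 0.90, and the difference between them was 0.11 (exact permutation p = 0.40).

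Other falling pairs carried regulators of RNA and chromatin. LIN28B, an RNA-binding protein that blocks let-7 maturation, fell by 0.65 and LIN28B-AS1 by 0.89. RBM26 read 8.86, 8.76 and 8.79 with DMSO and 8.24, 8.29 and 8.31 with NCT-503, and RBM26-AS1 read 5.80, 5.84 and 5.74 with DMSO and 4.45, 4.57 and 4.08 with NCT-503. Treated arrays were below all controls for both, and RBM26-AS1 fell by 1.43 (adjusted p = 0.000277) against 0.52 for RBM26 (adjusted p = 0.00154). A dimmer second row of RBM26-AS1 changed by -0.39 and was not called. RBM15, an adaptor of the RNA methylation complex, fell by 0.73 and RBM15-AS1 by 0.89, and PCGF3, a Polycomb subunit, fell by 0.70 and PCGF3-AS1 by 1.08. Of zinc finger genes, ZNF790 fell by 0.50 and ZNF790-AS1 by 1.79, and ZNF407 by 0.68 and ZNF407-AS1 by 0.88. HAND2-AS1 had the brightest antisense row. It read 10.34, 10.40 and 10.40 with DMSO and 8.91, 9.11 and 8.69 with NCT-503, a fall of 2.79-fold (adjusted p = 0.000147), while HAND2 read 9.56, 9.62 and 9.46 with DMSO and 9.37, 9.28 and 9.10 with NCT-503. HAND2 thus lay lower on all 3 treated arrays, with a change of -0.30 ± 0.09, but its call, at an adjusted p of 0.0472, was fragile: the value was 0.066 to 0.128 without any array but NCT-503 a, and the call was also lost with arrays centred on the median. The HAND2-AS1 and HAND2 changes differed by 1.18, with no overlap between the groups (exact permutation p = 0.10). PAXIP1-AS2 and THAP7-AS1 completed the 13, with antisense changes of -0.39 and -0.36 and partner changes of -1.0 and -0.38.

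Of the 5 pairs that rose together, UNC5B, a netrin receptor gene, read 8.84, 8.67 and 8.61 with DMSO and 9.68, 9.69 and 9.60 with NCT-503, and UNC5B-AS1 read 3.36, 3.69 and 3.44 with DMSO and 4.19, 4.30 and 4.35 with NCT-503. Both were higher on every treated array, by 0.95 ± 0.09 (adjusted p = 0.000272) and 0.78 ± 0.11 (adjusted p = 0.00142). MAPT rose by 0.59 (adjusted p = 0.00815) beside MAPT-AS1. LBX2, a homeobox gene, rose by 0.64 and LBX2-AS1 by 0.35, and DSG2, a desmosomal cadherin gene, by 0.44 and DSG2-AS1 by 0.41. FRMD6, an upstream regulator of the Hippo pathway, rose by 0.26, and FRMD6-AS2, on a dim row with a mean level of 2.27, by 0.57. Both FRMD6 calls were near the threshold, lost for FRMD6 without any array but NCT-503 c (adjusted p from 0.070 to 0.101) and for FRMD6-AS2 when DMSO b or c, or NCT-503 b, was left out (0.054 to 0.073).

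In the 52 pairs with the antisense RNA called alone, 32 antisense RNAs fell and 20 rose. The partners' changes there had a median size of 0.12 and reached 0.43 at most. In 38 of the 52 the antisense minus sense difference did not overlap between the groups, with an exact permutation p of 0.10 (two-sided), the smallest that 3 against 3 arrays allow. Over all 315 pairs the count was 136 (43.2%), and the 52 were picked for a call in 1 member, so the count is a description. FBXL19-AS1, which overlaps a gene of a CpG-binding F-box protein, fell by 1.07 (adjusted p = 0.000569), with FBXL19 at -0.24 ± 0.10. The 91 pairs with the partner called alone held the partners with the largest rises after ARRDC3. These were named after their values were seen. PCDH9, a protocadherin gene, rose by 1.81, with PCDH9-AS2 at 0.23 ± 0.17 and PCDH9-AS3 at 0.48 ± 0.17, neither of them called. TIPARP, a mono-ADP-ribosyltransferase gene, rose by 1.29, with TIPARP-AS1 at -0.03 ± 0.20. DSEL and DENND5B fell by 1.25 and 1.13, with DSEL-AS1 at 0.04 ± 0.10 and DENND5B-AS1 at 0.13 ± 0.15. SVIL-AS1, among the 6 brightest antisense rows, read 7.07, 7.16 and 7.21 with DMSO and 6.81, 7.00 and 6.91 with NCT-503. It changed by -0.24 with no overlap between the groups and was not called (adjusted p = 0.0697). SVIL, an actin-binding membrane protein gene, fell by 0.43 (adjusted p = 0.0103). The changes of SVIL-AS1 and SVIL differed by 0.19 (exact permutation p = 0.40). ZNF667-AS1, another of the 6, fell from 7.26 ± 0.04 to 6.61 ± 0.08 (SD, n = 3); its partner was not analysed here.

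The arrangement of the starts was read from RefSeq. In 218 pairs both members had a start region, always on opposite strands, and in 277 of the 315 pairs the gene spans overlapped. The starts lay within 1 kb of each other in 82 pairs and further apart in 136. Among the 82 near pairs, 19 antisense RNAs fell (23.2%) and 3 rose (3.66%), and of their partners 21 fell (25.6%) and 19 rose (23.2%). Among the 136 far pairs, 18 antisense RNAs fell (13.2%) and 17 rose (12.5%). Over all 478 antisense RNAs 16.3% fell and 7.95% rose, over all sense partners 17.8% and 19.5%, and over all genes tested 17.1% and 16.4%. The 3 that rose near their partner's start were LBX2-AS1, THAP9-AS1 and KIRREL3-AS3. In 43 pairs the windows themselves shared at least 30 bases. Of those 43 antisense RNAs 12 fell (27.9%) and none rose by limma's adjusted test (3 at an unadjusted p under 0.05), while of their partners 11 fell (25.6%) and 7 rose (16.3%). Counting also antisense RNAs whose partner had a RefSeq window but no row, 68 shared bases with the partner's window, of which 15 fell and 1, IDH1-AS1, rose. The near antisense rows were brighter, with a median level of 4.20 against 3.60 for the far ones. For the 43 with shared windows it was 4.30. Of all antisense RNAs with a level from 4 to 5, 23.3% fell and 6.90% rose, and of those from 3 to 4, 11.0% and 7.79%. The part of level in the counts by arrangement was not tested.

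**Figure D5:**
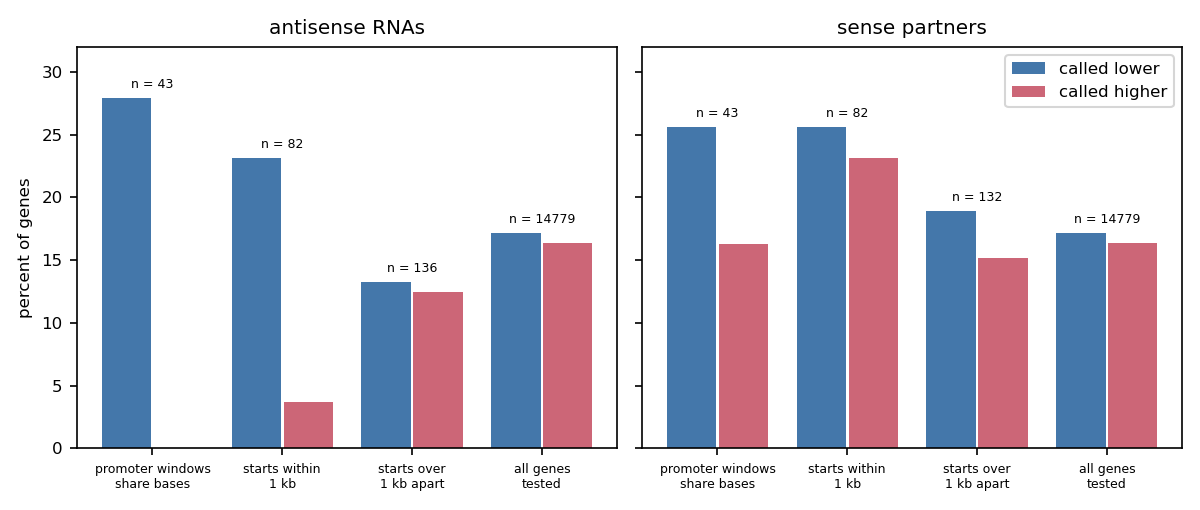
Percent of antisense RNAs (left) and sense partners (right) called lower (blue) and higher (red), by how the 2 starts lie in RefSeq, beside all genes tested; n is the number of genes, and the first class is a subset of the second. Where windows share bases, 12 of 43 antisense RNAs were called lower (27.9%) and none higher, beside 17.1% and 16.4% of all genes tested.

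Start regions were found for 367 of the 478 antisense RNAs. Their median number of CpG dinucleotides per 300-base window was 16, against 14 over all 27305 genes in the table. It was 21.5 for the 64 that fell, 7 for the 31 that rose and 15 for the 272 that were not called. For a gene with several windows, as 37 of these antisense RNAs have, the number was averaged over them. Over all 78 antisense RNAs that fell the median level was 4.76, and over all 38 that rose 3.64. The part of level in the CpG numbers was not tested. Every window was searched on both strands for 4 words of 8 bases, and a gene was counted if any of its windows held the word. The matches did not overlap, except in FGD5-AS1, where TTTGGCGC was found on both strands at overlapping positions. TTTCCCGC stood in the windows of 11 antisense RNAs (3.0%; 1.98% of all genes), of which PCNA-AS1, GATA3-AS1 and CDKN2B-AS1 fell and 8 were not called. For GATA3-AS1 the match lies in another of its windows, chr10:8053373-8053672 on the minus strand, and the printed window does not hold it. TTTGGCGC stood in 2 (0.545%; 0.795% of all), PCNA-AS1 and FGD5-AS1, and both fell. The cAMP response word TGACGTCA stood in 6 (1.63%; 2.25% of all), of which PTPRG-AS1 fell and 5 were not called. The amino acid response word TGATGCAA stood in 2 (0.545%; 1.08% of all), DLGAP1-AS5, which rose, and EHHADH-AS1, which was not called. A match describes the letters and is not a measured binding site.

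Several antisense RNAs shared a partner in 16 cases. Of these 16 partners, 8 had none of their antisense RNAs called and 8 had some called and others not. FOXN3-AS1 changed by -0.68 ± 0.08 and was called, and FOXN3-AS2 by 0.23 ± 0.15 and was not. FRMD6-AS1 changed by -0.42 ± 0.20 without a call beside the rise of FRMD6-AS2. Of ZNF32-AS1, ZNF32-AS2 and ZNF32-AS3, ZNF32-AS2 alone passed the test, with 0.49 ± 0.13 against 0.02 ± 0.19 and 0.32 ± 0.23. These differences within a locus were not tested. In 8 antisense RNAs more than 1 row carried the symbol. The 2 rows of C10orf95-AS1 were called in opposite directions (-0.62 and 0.40) in a fit of every row, so its direction is uncertain, and those of ERCC6L2-AS1 both fell (-0.73 and -1.15).

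Other noncoding genes on the arrays give a background for these counts. Of 907 other long noncoding RNAs, 131 fell (14.4%) and 72 rose (7.94%), close to the 16.3% and 7.95% of antisense RNAs. By 2-fold or more, 38 of the 907 fell and 5 rose, beside 28 and 1 of the 478 antisense RNAs. The median change of those called lower was -0.65, beside -0.83 for antisense RNAs. More 2-fold falls than rises were thus not particular to antisense RNAs. Of 457 genes with LINC symbols, 37 fell and 35 rose. Of 27 intronic transcripts with -IT symbols, 8 fell and 2 rose. Of 9 small nucleolar RNA hosts with SNHG symbols, 1 fell and 2 rose. Split by pairing, 53 fell and 27 rose of 315 with a partner row (16.8% and 8.57%), and 25 fell and 11 rose of 163 without (15.3% and 6.75%). None of these shares was tested against another.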

How the data were processed

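Total RNA of 6 samples was hybridised to single-colour Affymetrix arrays. The deposited values are log2 values, judged from their range, that the authors made with Partek (per the submitters' processing notes). Which Partek version, background correction, normalization and genome build they used was not given in the sources used here. In the table were 31135 rows, of which 15098 carried 1 gene symbol, and all of these matched an Entrez entry of the RefSeq gene table. The other 16037 rows entered an alternative alone. The row with the highest mean was used for each symbol, which left 14779 genes. Whether each probe set reads a single strand was not tested; where antisense and sense share exons, a row could take signal from both.

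All genes were fitted with limma 3.58.1 under R 4.3.3 as a model of 2 group means (lmFit, then eBayes with no trend), two-sided. P-values were adjusted by Benjamini-Hochberg over the 14779 genes, and a gene was called at an adjusted p under 0.05. The script was tested on simulated data. Folds are log2 changes raised from base 2. Pair differences were tested by exact permutation over the 6 arrays. The named genes are the 12 largest rises and 12 largest falls among called antisense RNAs whose groups do not overlap, all opposite pairs, the 12 same-direction pairs with the largest smaller change, the partners of these, the 6 antisense RNAs with the highest level and up to 4 called members per partner list. Further members were picked with their values in view, to complete small counts. The members and lists were chosen with earlier results of these data known. Start regions are RefSeq windows on GRCh38.p14, found for 367 antisense RNAs. Alternatives were other eBayes settings, array centring, quantile normalization, filters on dim rows, the mean of all rows, every row, a replicate block, a stricter threshold and leaving out each array.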

Additional observations from a re-analysis of the deposited data

How the results depend on the processing

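The number of antisense RNAs that rose was the count that moved most: 38 as reported, 65 with arrays centred on the 75th percentile, 21 and 11 among the 252 and 68 antisense RNAs at or above the 25th and 50th percentile of level, 7 at an adjusted p under 0.01, and 20 to 30 when 1 array was left out (22 without DMSO a, 20 without DMSO c, 24 without NCT-503 b). Of the 78 that fell, the count was 38 at or above the 50th percentile, where fewer genes were tested, and between 53 and 85 in the other alternatives. Same-direction pairs numbered 10 both at or above the 50th percentile and at an adjusted p under 0.01, and opposite pairs 3 and 4. At an adjusted p under 0.01, 28 sense partners rose and 35 fell. The labels do not say whether the letters a, b and c of the titles pair the samples. Deviations of same-lettered samples from their group means correlated at 0.00361, 0.00263 and 0.0375. These values show no large effect shared by letter, but cannot tell whether same-lettered samples were grown or processed together. With the letter as a replicate block, 32 antisense RNAs rose and 75 fell, 15 pairs moved the same way and 7 in opposite directions. Of 52 named antisense RNAs that were called, 39 kept call and direction in every alternative run that tested them, and no named gene changed direction. Dim rows limit what can be seen, and scanner backgrounds were not used here. The causes of these shifts were not tested.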
